A study of Rattus norvegicus with 8 samples.

Results

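Gene models named Alkbh6, Clip3, Pdcd5, Hiat1, Echs1 and Tsen34 were taken from the 5 deposited tables by gene name. The 6 names gave 9 gene models, because Clip3, Hiat1 and Tsen34 each stood for 2 models at different places, out of 9025 genes listed in all. The names had been chosen because their counts switched between libraries, so the counts below describe that choice and carry no test. RNA came from ventricular cardiomyocytes of Sprague Dawley rats 2 to 3 days old, cultured for 24 h under normoxia or ischemia (1% oxygen, 5% CO2). At each oxygen level they received eugenol, the main aroma phenol of cloves, at 10 µM, or DMSO, the solvent. The 4 groups are named by oxygen level and treatment (from normoxia DMSO to ischemia eugenol) and held 2 libraries each, and no label gives a genetic change in any of them. Library totals behind the FPKM values were 14.7 to 17.7 megareads, and RPM below is reads per megaread of that total.

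A gene model is the stretch of an assembly to which an annotation gives a gene. Where an assembly carries a gene in more than 1 copy, a short read can match each copy, and a count then depends on how the aligner and the counting program place it. Reads of genes that overlap on opposite strands likewise cannot be told apart unless counting uses strand, and no source used here says that it did. In bulk RNA, fewer cells of a type and less RNA per cell cannot be told apart.

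The 6 genes encode unrelated proteins, with roles known mostly from human and mouse. ALKBH6 belongs to the AlkB family of oxygenases, which use iron, 2-oxoglutarate and oxygen, and CLIP3 is a CAP-Gly domain protein of the trans-Golgi network that binds microtubules. PDCD5 is a small protein linked to apoptosis that binds the acetyltransferase TIP60 and the chaperonin CCT. HIAT1, now named MFSD14A, is a membrane protein of the major facilitator family with transporter-like sequence. ECHS1 is the mitochondrial short-chain enoyl-CoA hydratase of fatty acid and valine breakdown, and TSEN34 is a catalytic subunit of the endonuclease that cuts introns out of transfer RNA.

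The label of chromosome 1 neighbours held for some members. Of the 9 models, 8 lay on chromosome 1 and 1 on chromosome 2, in the coordinates of the deposited tables, whose genome build is not given in the sources used here. Alkbh6 (chr1:90957133-90962466) and a Clip3 model (chr1:90962707-90978907) lay 240 bases apart on the minus strand, and Pdcd5 (chr1:91173473-91178801, minus strand) lay 195 kb beyond that Clip3 model. The second Clip3 model (chr1:88750462-88765220) was 2.2 Mb away on the plus strand. Echs1 (chr1:212570195-212579057, minus strand) was 122 Mb from Alkbh6. The Tsen34 models (chr1:64024240-64030175 and chr1:64092226-64099277, both minus strand, the first with an exon length of 939 bases and the second of 1344 bases) stood 62 kb apart. The Hiat1 models were on chromosome 1 (chr1:69788609-69820981, plus strand) and chromosome 2 (chr2:219662064-219693629, minus strand).

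Only 1 listed gene overlapped a member: Paox, on the opposite strand, shared 608 bases with Echs1. A pair of listed models elsewhere on chromosome 1 carried a description that repeats a member's with the ending "-like". LOC100912106 (programmed cell death protein 5-like, chr1:91961020-91966418) lay 782 kb from Pdcd5, and LOC100911186 (enoyl-CoA hydratase, mitochondrial-like, chr1:141821916-141830764) lay 70.7 Mb from Echs1. These descriptions are the only evidence used here that they are copies, since no sequence of the models was compared. RefSeq's table for GRCr8, used for names and order only, gave each of Clip3, Alkbh6, Pdcd5, Echs1 and Tsen34 1 entry, placed Clip3 beside Alkbh6, and listed Hiat1 as an older name of Mfsd14a on chromosome 2 and of a pseudogene, Hiat1-ps1, on chromosome 1.

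The promoters of Clip3 and Alkbh6, the adjacent members whose reads moved the same way between the ischemia groups, and of Echs1, which had the highest read counts with ischemia and eugenol among the 9 models, are shown from RefSeq GRCr8. The windows run from 250 bases before to 50 after the start, read 5′ to 3′ on the gene's strand. In GRCr8 Clip3 and Alkbh6 are on the plus strand, whereas the deposited models whose reads moved together are on the minus strand. The 1 RefSeq entry of Clip3 was not matched to either deposited Clip3 model. Capitals mark ACGTG or GCGTG on either strand, the core of hypoxia response elements.

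Clip3, chr1:94674401-94674700 plus strand: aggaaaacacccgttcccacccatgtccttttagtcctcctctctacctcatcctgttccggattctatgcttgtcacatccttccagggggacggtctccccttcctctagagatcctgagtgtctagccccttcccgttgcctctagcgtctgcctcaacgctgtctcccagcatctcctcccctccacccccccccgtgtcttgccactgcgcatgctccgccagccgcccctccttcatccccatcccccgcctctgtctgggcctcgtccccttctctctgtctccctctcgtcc

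Alkbh6, chr1:94690812-94691111 plus strand: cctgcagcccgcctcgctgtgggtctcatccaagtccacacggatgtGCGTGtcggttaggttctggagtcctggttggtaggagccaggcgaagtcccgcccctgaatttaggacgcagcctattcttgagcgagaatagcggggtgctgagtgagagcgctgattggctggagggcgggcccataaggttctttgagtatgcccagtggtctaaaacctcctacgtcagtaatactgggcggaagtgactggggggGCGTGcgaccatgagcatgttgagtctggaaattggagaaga

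Echs1, chr1:204333457-204333756 minus strand: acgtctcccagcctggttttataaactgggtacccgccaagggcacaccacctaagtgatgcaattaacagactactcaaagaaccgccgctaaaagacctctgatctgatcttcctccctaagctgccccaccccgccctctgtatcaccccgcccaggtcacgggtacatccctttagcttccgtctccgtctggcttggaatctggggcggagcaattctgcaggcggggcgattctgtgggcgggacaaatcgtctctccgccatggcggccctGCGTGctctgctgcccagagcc

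The Clip3 window held 0 matches, Alkbh6 held 2 and Echs1 held 1. All 6 names matched a RefSeq entry, with 7 windows, of which 4 held a match. Of all 33469 windows of 300 bases in the table, 41.6% held at least 1. A match is a string of letters and says nothing of binding, and a window without one says only that these letters are not in it.

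Clip3 on the minus strand and Alkbh6 were high together in ischemia DMSO. This Clip3 model had 11 and 20 reads in the normoxia DMSO libraries, 545 and 280 with ischemia DMSO, and 28 and 32 in ischemia eugenol, and it was not listed with a normoxia eugenol count. Both ischemia DMSO libraries stood above the other 4. In RPM the means were 0.954 ± 0.409 (SD, n = 2, as for all such values), 24.1 ± 9.3 and 1.83 ± 0.118. The log2 ratio of means was 4.66 for ischemia DMSO over normoxia DMSO and -3.72 for ischemia eugenol over ischemia DMSO.

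Alkbh6 had 3 and 4 reads in normoxia DMSO, 91 and 46 in normoxia eugenol, 19 and 37 in ischemia DMSO, and 4 and 5 in ischemia eugenol. Normoxia eugenol was the highest group and ischemia DMSO the next, and no library of either overlapped the other 2 groups, which lay close together. The group means were 0.215 ± 0.0477, 4.51 ± 1.95, 1.7 ± 0.885 and 0.275 ± 0.035 RPM in that order. Eugenol thus went with more Alkbh6 reads in normoxia (log2 ratio 4.39) and fewer in ischemia (-2.63), on counts under 100 in every library. The sum of Alkbh6 and the adjoining Clip3 model went from 25.8 ± 8.41 RPM in ischemia DMSO to 2.11 ± 0.153 in ischemia eugenol, a log2 ratio of -3.62. Both parts were lower there and Clip3 supplied most of the reads, so this sum does not bear on reads moving between them.

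The plus-strand Clip3 model was high in a single library. It had 9 and 6 reads in normoxia DMSO, 8 and 7 in normoxia eugenol, and 13 and 199 in ischemia eugenol, with no ischemia DMSO count listed. That library, ischemia eugenol 2, had 14.7 times the RPM of its replicate, so the authors' log2 fold change of 3.79 over normoxia DMSO in their deposited table rested on that library. In ischemia eugenol 2 the minus-strand model held 13.9% of the reads of both models (95% Clopper-Pearson interval 9.67% to 19%, counting error only) and in ischemia eugenol 1 it held 68.3% (51.9% to 81.9%).

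Pdcd5 and LOC100912106 exchanged places between ischemia libraries. Pdcd5 had 490 and 225 reads in ischemia DMSO against 9 and 16 in ischemia eugenol, and no normoxia count was listed. LOC100912106 had 6 and 11 reads in ischemia DMSO and 450 and 13 in ischemia eugenol, beside 14 and 21 in normoxia DMSO. Pdcd5 was thus high in both ischemia DMSO libraries, and its copy was high in ischemia eugenol 1 alone, at 36.1 times the RPM of the second library.

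The summed reads of Pdcd5 and its copy were 27.9 and 14.8 RPM in ischemia DMSO and 28.7 and 1.74 RPM in ischemia eugenol. Pdcd5 held 98.8% (97.4% to 99.6%) and 95.3% (91.8% to 97.7%) of them in ischemia DMSO, but 1.96% (0.9% to 3.69%) in ischemia eugenol 1. The log2 ratio of ischemia eugenol over ischemia DMSO was -4.78 for Pdcd5, 4.81 for the copy and -0.49 for the sum. Without ischemia eugenol 1 that sum gave -3.62 and without ischemia eugenol 2 it gave 0.42, so its size and direction rested on which library was kept. In ischemia eugenol 2 neither model was high.

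The Hiat1 models gave the closest balance. The chromosome 2 model had 81 and 140 reads in normoxia DMSO, 71 and 120 in normoxia eugenol, 89 and 99 in ischemia DMSO, and 293 and 211 in ischemia eugenol. The chromosome 1 model had 13 and 12 in normoxia DMSO, 134 and 200 in ischemia DMSO, and 11 and 9 in ischemia eugenol, with none listed for normoxia eugenol. The first model was highest in ischemia eugenol and the second in ischemia DMSO, in both libraries of the group each time.

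Summed over both Hiat1 models, the level was 7.57 ± 2.67 RPM in normoxia DMSO, 15.7 ± 4.38 in ischemia DMSO and 16.1 ± 4.12 in ischemia eugenol. The libraries of the ischemia groups overlapped, at 12.6 and 18.8 RPM with DMSO and 19 and 13.2 RPM with eugenol. The log2 ratio of ischemia eugenol over ischemia DMSO was 1.46 for the chromosome 2 model, -4.04 for the chromosome 1 model and 0.04 for the sum. The chromosome 2 model held 39.9% and 33.1% of the reads in ischemia DMSO and 96.4% and 95.9% in ischemia eugenol. Ischemia DMSO over normoxia DMSO gave 1.05 for the sum, against -0.28 and 3.71 for the models alone.

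**Figure D1:**
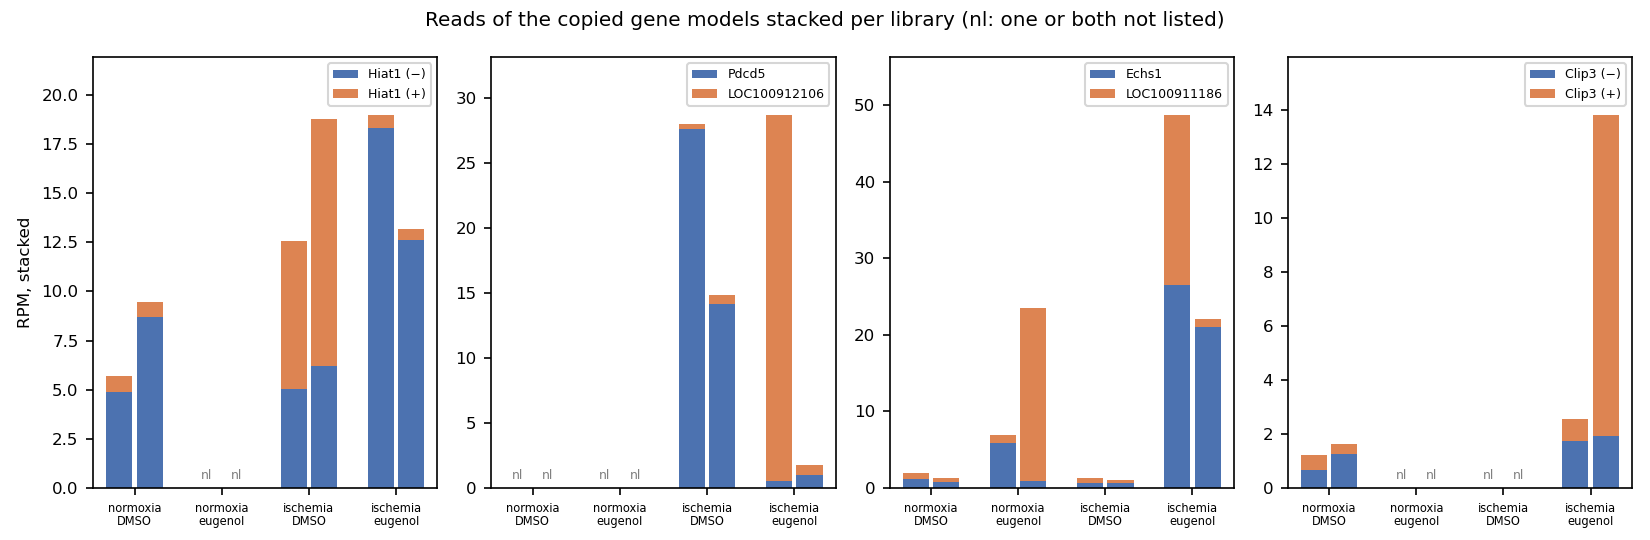
Reads per megaread of the models of each copied pair, stacked, in each library (bars, 2 per group; nl marks a library in which 1 or both models had no listed count). The Hiat1 bars reach 12.6 to 19 RPM in all 4 ischemia libraries with the colours exchanged, whereas the Echs1 pair stands at 6.92 to 48.7 RPM in the eugenol libraries and at or below 1.93 RPM in the DMSO libraries. Plus and minus after a name give the strand of the model, minus being chromosome 2 for Hiat1. The LOC models were paired with members after their counts were seen.

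**Figure D2:**
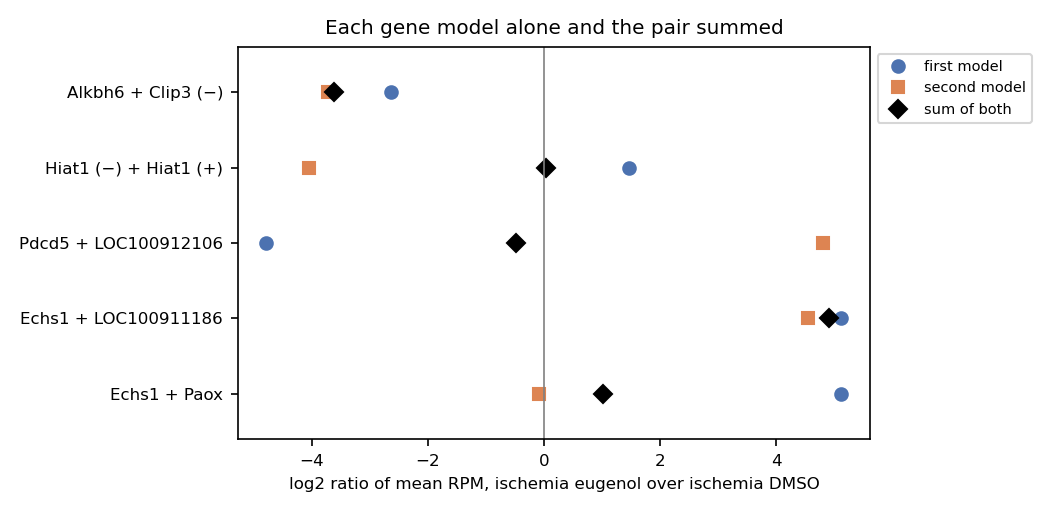
The log2 ratio of mean RPM, ischemia eugenol over ischemia DMSO (x axis), for each model alone and for the sum of the pair (y axis, 5 pairs). The sum lies at 0.04 for Hiat1 and -0.49 for Pdcd5, between opposite models, and at 4.91 for Echs1 with its copy.

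By group means in ischemia, Echs1 differed from Hiat1 and Pdcd5, because the mean of its copy was also higher with eugenol, mostly through ischemia eugenol 1. Echs1 had 20 and 13 reads in normoxia DMSO, 91 and 14 in normoxia eugenol, 12 and 11 in ischemia DMSO, and 424 and 351 in ischemia eugenol. Both ischemia eugenol libraries stood above all others, and the next highest was normoxia eugenol 1. The group means were 1.01 ± 0.283, 3.42 ± 3.49, 0.683 ± 0.00985 and 23.8 ± 3.87 RPM.

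LOC100911186 had 12 and 8 reads in normoxia DMSO, 16 and 331 in normoxia eugenol, 12 and 5 in ischemia DMSO, and 356 and 17 in ischemia eugenol. It was high in 1 library of each eugenol group, at 21.8 and 21.9 times the RPM of the other library. Summed with Echs1, the level was 35.4 ± 18.9 RPM in ischemia eugenol and 1.18 ± 0.246 in ischemia DMSO, a log2 ratio of 4.91, and 15.2 ± 11.7 in normoxia eugenol against 1.62 ± 0.444 in normoxia DMSO, a log2 ratio of 3.23. The lowest summed library with eugenol, at 6.92 RPM, was above the highest with DMSO, at 1.93 RPM. That split was not tested, since Echs1 was chosen on these counts and its copy was added after they were seen. Echs1 alone did not give it, with 0.953 RPM in normoxia eugenol 2 and 1.209 RPM in normoxia DMSO 1. The share held by Echs1 ranged from 4.06% in normoxia eugenol 2 to 95.4% in ischemia eugenol 2. Within normoxia eugenol the models were high in opposite libraries, with an Echs1 share of 85% in normoxia eugenol 1.

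Paox, which encodes a peroxisomal polyamine oxidase, did not mirror its overlapping partner. It had 189 and 178 reads in normoxia DMSO, 144 and 149 in normoxia eugenol, 357 and 339 in ischemia DMSO, and 312 and 326 in ischemia eugenol. The replicates lay within 1.09 times of each other, and Paox was higher in ischemia than in normoxia with either treatment. Between the ischemia groups Paox had a log2 ratio of -0.09 while Echs1 had 5.12, and their sum rose by a log2 ratio of 1.02. The Echs1 share of that pair was 3.14% to 9.57% in the DMSO libraries, 38.7% and 8.59% in normoxia eugenol, and 57.6% and 51.8% in ischemia eugenol, a span of 54.5 percentage points.

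As a gene the choice of members did not use, Paox could be tested. It rose in ischemia without eugenol by 0.88 ± 0.14 on the log2 scale (SE; edgeR quasi-likelihood, adjusted p = 6.08e-05) and with eugenol by 1.00 ± 0.14 (adjusted p = 2.71e-05). Mtg1, which encodes a mitochondrial ribosome-associated GTPase and lies 27.7 kb from Echs1, had 0.40 ± 0.11 (adjusted p = 0.00447) and 0.53 ± 0.11 (adjusted p = 0.000763). These p-values are over genes pre-selected by the tables, of which 99.5% and 99.2% were called. In the authors' deposited tables Paox was called in both comparisons, and Mtg1 was not called without eugenol and was called with it. Neither passed between eugenol and DMSO, with Mtg1 at 0.06 ± 0.11 in ischemia (edgeR adjusted p = 1). These 2 genes flank the Echs1 model on 1 side, and no listed gene lay within 50 kb on the other.

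In the 4 eugenol libraries the shorter Tsen34 model held 85.4% to 100% of the reads of both. It had 51 and 46 reads in normoxia DMSO, 117 and 204 in normoxia eugenol, 66 and 112 in ischemia DMSO, and 8 and 38 in ischemia eugenol. Ischemia eugenol was the lowest group and normoxia eugenol the highest, with group means of 2.97 ± 0.157, 10.7 ± 4.47, 5.37 ± 2.34 and 1.39 ± 1.26 RPM. The longer model, listed in the eugenol groups alone, had 20 and 1 reads in normoxia and 1 and 0 in ischemia. The sum in ischemia eugenol over normoxia eugenol had a log2 ratio of -3.01, close to the -2.95 of the shorter model. The longer model added few reads to that sum, and its reads in the DMSO groups are not known here.

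**Figure D3:**
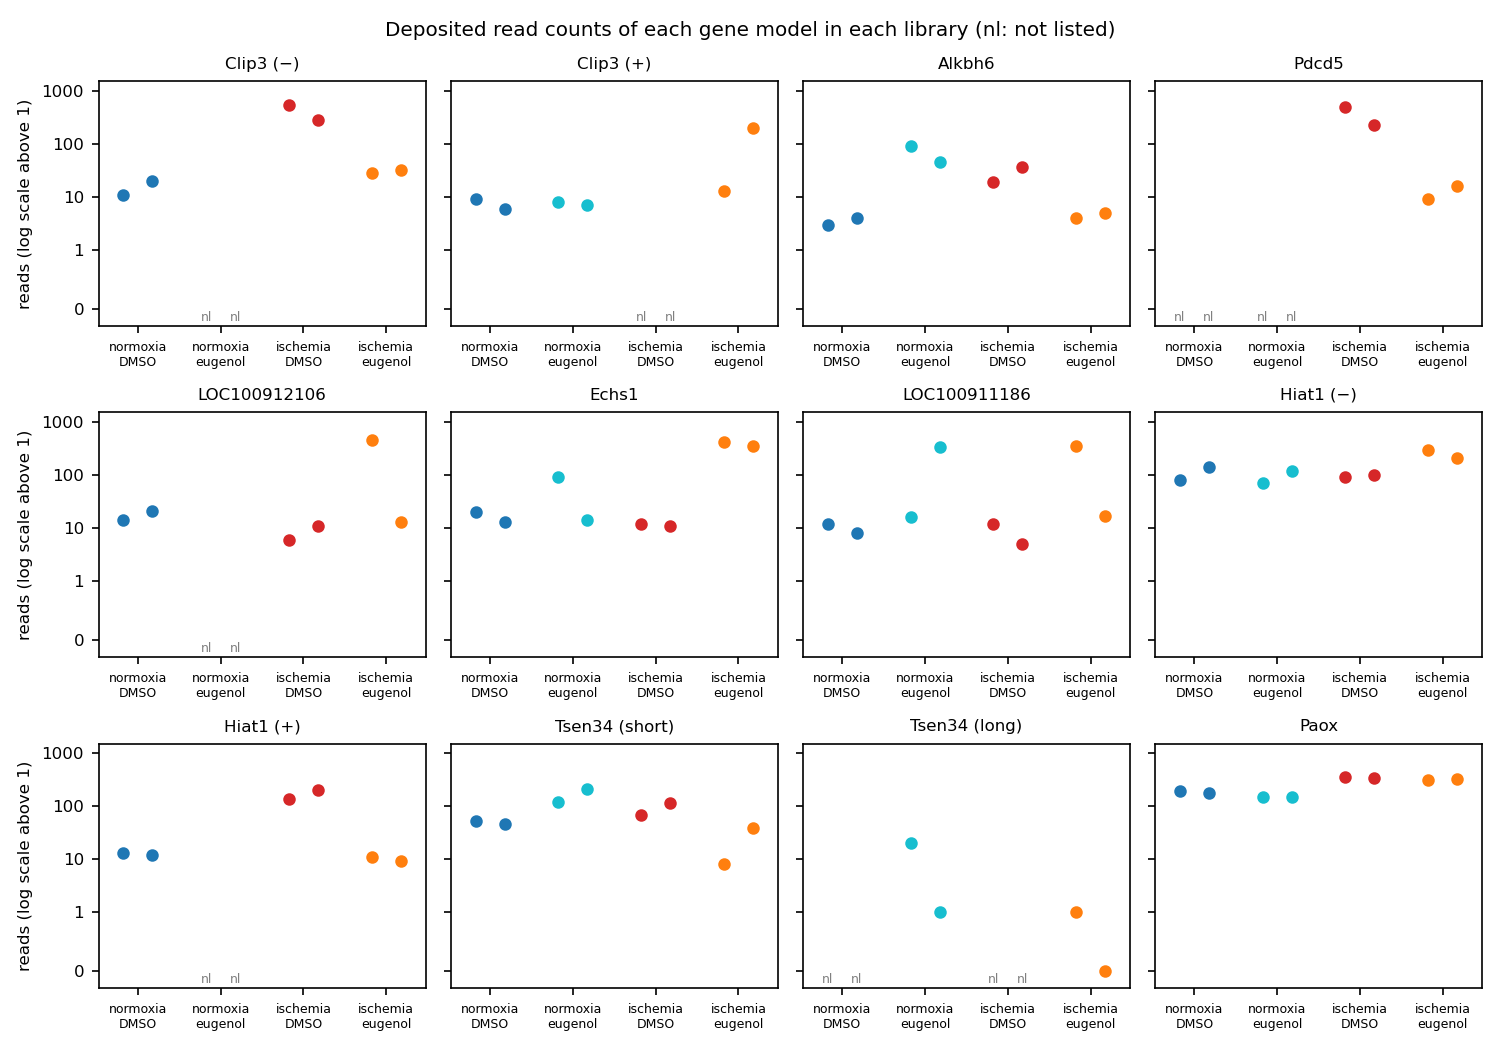
Deposited reads per gene model (y axis, log scale above 1) in the 8 libraries (points, coloured by group; nl marks a library with no listed count), for the 9 models, the 2 copies and Paox. The 4 groups are ordered alike in every panel, and Paox stays between 144 and 357 reads.

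Other listed genes near the members were few. Capns1, the calpain small subunit gene 36.1 kb from Alkbh6, had 30 and 35 reads with normoxia DMSO but 12 and 8 with ischemia eugenol. Between Wdr62 and Pdcd5 the tables placed LOC100911363, described as calpain small subunit 1-like, with 41 and 36 reads in normoxia DMSO, 24 and 105 in normoxia eugenol, and 328 and 488 in ischemia eugenol. It was named after its values were seen. Wdr62, a spindle pole protein gene 16.6 kb from Clip3, had 33 and 41 reads in normoxia DMSO, 5 and 6 in normoxia eugenol, and 16 and 11 in ischemia eugenol. Trmt13, a transfer RNA methyltransferase gene 33.1 kb from the chromosome 2 Hiat1 model, had 98 and 72 reads in normoxia eugenol and 191 and 156 in ischemia eugenol.

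Per length, the highest member means were those of Pdcd5 in ischemia DMSO, 31.8 ± 14.5 FPKM, and Echs1 in ischemia eugenol, 15.9 ± 2.59 FPKM. The Pdcd5 libraries were at 42 and 21.5 FPKM and the Echs1 libraries at 17.7 and 14 FPKM, so the replicates of Pdcd5 lay further apart than its lower library lay from Echs1. The lowest were those of Alkbh6 in normoxia DMSO, 0.149 ± 0.0331 FPKM, and the longer Tsen34 model in ischemia eugenol, 0.0232 ± 0.0329 FPKM.

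To set the members among all listed genes, a swing was taken for each gene, a measure chosen after the data were seen. It is the largest range of log2(RPM + 0.5) among libraries of 1 oxygen level, over those with a listed count. Of the 9025 genes 6582 had a count in all 8 libraries, so swings rest on unequal numbers of libraries. Pdcd5 had counts in ischemia alone, and for the longer Tsen34 model the swing, 1.66, equalled the gap between replicates. The median swing was 0.31, and 69 of 9025 genes (0.765%) exceeded 3, an 8-fold range. Of the 9 member models 6 exceeded 3, from Alkbh6 at 3.23 to Pdcd5 at 4.73. The shorter Tsen34 model, at 2.91, fell just below that limit, and the chromosome 2 Hiat1 model had 1.77. The copies LOC100911186 and LOC100912106 had 4.80 and 5.09.

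**Figure D4:**
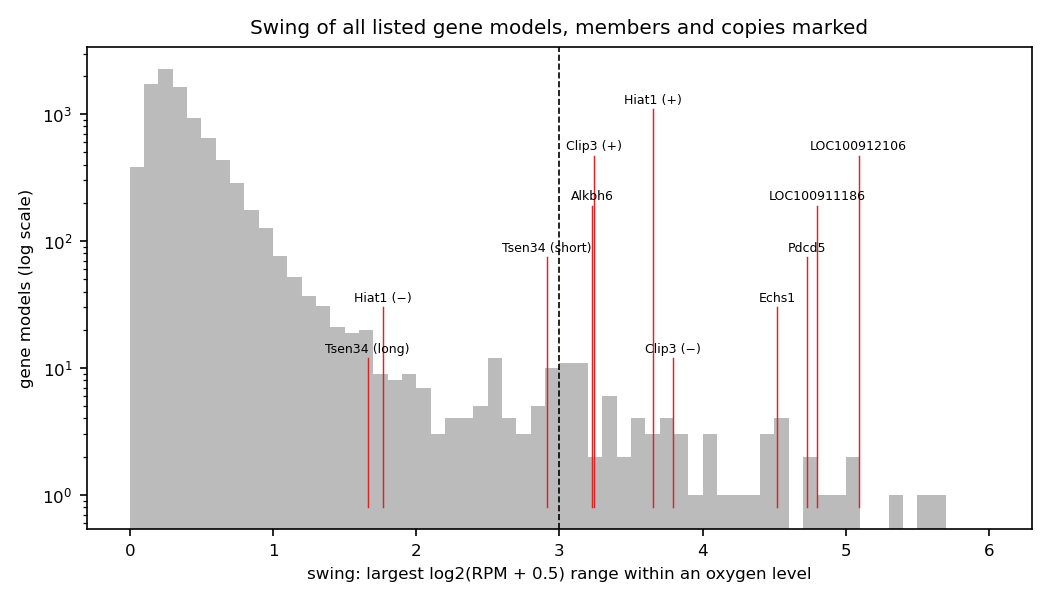
Number of gene models (y axis, log scale) by swing (x axis, the larger log2(RPM + 0.5) range within normoxia or within ischemia), with the member models and the 2 copies marked by red lines. The dashed line is at 3, and the copies stand at 4.80 and 5.09 while the median of all genes is 0.31.

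Models with a shared name or a "-like" description held a larger share of the models with a large swing than of all listed models. Listed models had an unadjusted p under 0.05 in at least 1 table, which a large difference between eugenol and DMSO can itself give. The shares below therefore describe the listed models and carry no test. Outside the members, 63 models exceeded 3, and 16 of them (25.4%) shared a gene name with another model or had a LOC name and a "-like" description, against 200 (2.22%) of all models outside the members. The 16 include LOC100911186 and LOC100912106, which were singled out as copies of members. Chromosome 1 held 13 of the 63 (20.6%), these 2 copies among them, and 12.4% of all listed genes outside the members. The 3.22 Mb from the plus-strand Clip3 model to LOC100912106 held 41 listed models. Of these, 5 exceeded 3, and they were the 4 members of the stretch (both Clip3 models, Alkbh6 and Pdcd5) and the copy that bounds it, all chosen on their counts. The other 36 had a median of 0.28 and none exceeded 1.90.

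For names carried by 2 models, the swing was taken again over only the libraries in which both models had a count, for each model and for their summed reads. The range of a sum is bounded, apart from the pseudocount, by the wider of its parts, so a sum that swings less than the larger model is given by the arithmetic. A sum that swings less than both parts is not, but whether reads moved between the models was not tested. Of 29 other such names with at least 4 shared libraries, 9 had a model with a swing over 1 there, and in 3 of these the sum swung less than both. Hmgb3, a chromatin protein gene, had 1.89 and 1.11 for the models and 0.76 for the sum. Faah, a fatty acid amide hydrolase gene, had 1.36, 1.37 and 1.37. Some names without a swing over 1 gave it too, such as Nr3c1 (0.13, 0.15 and 0.12) and Rps10 (0.16, 0.27 and 0.11). Others, such as Cox6b1 (0.14, 0.20 and 0.15), did not. A sum below both parts thus does not single out names with large swings. Among the members, chosen on their counts, the Hiat1 models had 1.77 and 3.65 and their sum 0.69 over 6 libraries. Over the 4 eugenol libraries the Tsen34 models had 1.47 and 1.66 and their sum 1.39. Over 4 libraries without ischemia DMSO, the group in which the minus-strand model was high, the Clip3 models had 3.24 (plus strand) and 0.58 (minus strand) and their sum 2.23.

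The authors' deposited tables called 5 member models of 23 genes in ischemia eugenol against ischemia DMSO. These 23 were 0.121% of an estimated 18972 genes tested. The authors' number of genes tested is not given. It was inferred here from their adjusted and unadjusted p-values, as in the other comparisons below. The 5 member models were Echs1, the chromosome 2 Hiat1 model, the chromosome 1 Hiat1 model, minus-strand Clip3 and Pdcd5. In normoxia eugenol against normoxia DMSO they called 2, Alkbh6 and the shorter Tsen34 model, of 26 genes (0.181% of 14362). Of the calls outside the members, 5 of 18 in ischemia (27.8%) and 5 of 24 in normoxia (20.8%) were shared names or "-like" models. Of all listed models outside the members 2.22% were of that kind, and of the calls in the oxygen comparisons 1.55% to 1.7%. The share among the genes tested is not known here. In the oxygen comparisons the members called were 3 in ischemia DMSO against normoxia DMSO (40.9% of all genes tested), 5 in ischemia eugenol against normoxia eugenol (41.1%) and 3 in ischemia eugenol against normoxia DMSO (39.3%). The comparisons share libraries, and the members were chosen on these values.

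In the edgeR fit of the 6582 genes with a count in all 8 libraries, which included 4 member models, 1 gene was called between the ischemia groups (0.0152%), with 242 at an unadjusted p under 0.05, and it was Echs1. That call was lost without either ischemia DMSO library, at log2 changes of 5.09 and 5.12. Between the normoxia groups 3 were called (0.0456%), Ogn, Alkbh6 and Rbm12, with 274 unadjusted. Alkbh6 lost its call without normoxia DMSO replicate 1 (log2 4.14) and without normoxia eugenol replicate 1 (3.82). Ogn lost it without normoxia eugenol replicate 1, and Rbm12 without either normoxia eugenol library. DESeq2 on the same counts called 6 and 11. Echs1 and Alkbh6 had been chosen as members on these counts, so their calls repeat that choice and do not test it.

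By likeness over the 8 libraries (Pearson's r of log2(RPM + 0.5) among genes of at least 5 RPM, a description without a test), the gene most like Alkbh6 was the shorter Tsen34 model (r = 0.80), followed by Myh7, a cardiac myosin heavy chain gene, at 0.78. The gene most opposite to both Alkbh6 (-0.82) and Tsen34 (-0.84) among named genes was Ppp2ca, a phosphatase subunit gene, with 497 and 346 reads in normoxia eugenol and 798 and 862 in ischemia eugenol. Echs1 was most like Hspa5, an endoplasmic reticulum chaperone gene (0.86), and the chromosome 2 Hiat1 model was most like Ptprd, a receptor phosphatase gene (0.82). All these values share the same 8 libraries and their depth. Alkbh6 and Tsen34 were both chosen as members on these counts, so the likeness between them is not independent of that choice.

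Genes of the members' pathways were called with oxygen at about the rate of all fitted genes. Of 69 genes in 6 lists, 42 were listed and 26 had a count in all 8 libraries. In ischemia DMSO against normoxia DMSO edgeR called 16 higher and 10 lower, where 99.5% of the fitted genes were called because the tables had pre-selected them, and the authors' tables called 19 higher and 10 lower. In ischemia eugenol against normoxia eugenol it called 16 higher and 9 lower (99.2% of fitted genes, 47.7% higher and 51.5% lower). In the eugenol comparisons edgeR called 0 of the 26 at either oxygen level, DESeq2 called 0 in both, and 0 in ischemia and 1 in normoxia had an unadjusted p under 0.05.

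Of the 8 AlkB family genes 4 were fitted, and these 4 were called higher in ischemia DMSO, where 47.6% of all fitted genes were called higher and 51.9% lower. Their median log2 change was 0.77. Alkbh5, a demethylase of N6-methyladenosine in RNA, went from 89.5 ± 1.41 to 201 ± 6.65 RPM (log2 1.17 ± 0.10, edgeR adjusted p = 3.3e-07). Of the microtubule plus-end genes 3 rose and 2 fell. Mapre1, the end-binding protein EB1, fell from 210 ± 0.187 to 114 ± 6.74 RPM (log2 -0.88 ± 0.09, edgeR adjusted p = 2.97e-06), and Clip1, a CAP-Gly relative of Clip3, rose from 109 ± 4.88 to 174 ± 7.86 (0.67 ± 0.09, edgeR adjusted p = 1.42e-05).

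Cct4, a subunit of the chaperonin that PDCD5 binds and the only fitted gene of its list, rose from 251 ± 2.23 to 403 ± 21.7 RPM (log2 0.68 ± 0.08, edgeR adjusted p = 5.13e-06). Of the major facilitator genes 3 rose and 2 fell, among them Mfsd11 with 28 ± 0.738 and 52.1 ± 0.665 RPM (0.90 ± 0.09, edgeR adjusted p = 2.04e-06). Of the genes of short-chain fatty acid and valine breakdown, the pathway of Echs1, 4 rose and 5 fell. Acadm, the medium-chain acyl-CoA dehydrogenase, with 183 ± 22.4 RPM in normoxia and 91.5 ± 1.67 in ischemia, fell by 1.00 on the log2 scale with an SE of 0.10 (edgeR adjusted p = 1.31e-06), and Hadhb, a subunit of the mitochondrial trifunctional protein, rose from 324 ± 9.35 to 426 ± 1.96 (0.39 ± 0.08, edgeR adjusted p = 0.00071). Of the transfer RNA splicing genes Trpt1, a 2′-phosphotransferase, rose by 1.27 ± 0.15 (edgeR adjusted p = 6.94e-06) and Rtcb, the ligase, fell by 0.45 with an SE of 0.08 (edgeR adjusted p = 0.000237).

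The zero of these changes depends on scaling, as the median log2 change of all fitted genes in ischemia DMSO moved from -0.31 under the authors' totals to -0.23 under TMM and -0.08 under DESeq2 size factors. Cardiomyocyte markers, 7 of 8 listed, summed to 60148 to 61777 RPM in normoxia and 31001 to 36166 in ischemia. Fibroblast markers, 7 of 7 listed, summed to 13779 to 16282 and 6684 to 8149 in that order. Smooth muscle markers summed to 4188 to 5165 and 1020 to 1216. Endothelial markers gave 192.5 to 235.5 and 70.03 to 91.69, and macrophage markers 73.73 to 85.33 and 27.96 to 36.97. The cardiomyocyte sum follows its highest genes, led by Nppa with a mean of 15829 RPM, and need not hold for each cardiac gene. Myh7 rose under ischemia without eugenol, from counts of at most 80972 to at least 101991. With eugenol its counts fell, from at least 90830 to at most 86242. The part of these marker levels in the oxygen differences was not tested.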

How the data were processed

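The 8 libraries were made from total RNA with an Illumina TruSeq kit, per the labels' protocols. The authors deposited 5 tables that compare groups pairwise and hold only genes with an unadjusted p-value under 0.05. Read counts per gene model are as deposited. DESeq2, edgeR, HISAT2 and StringTie 1.3.3b appear in the submitters' processing notes, with no role stated. The deposited normalized signal was not used for values here. FPKM values are the authors' own, and their ratio to the counts and gene lengths gave 1 total per library. The log2 fold changes and the p-values were computed by the authors for the first group of each table title over the second. Column codes were assigned to groups from the table titles, which allowed 1 assignment. A gene without a value in a library was in no table holding that library and was left out there.

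Members and gene lists were chosen with earlier results of these data known. RPM is the count over that total. Shares carry 95% Clopper-Pearson intervals, which cover counting error only. edgeR 4.0.16 quasi-likelihood was fitted to the 8 libraries with the authors' totals, with a Benjamini-Hochberg adjustment over 6582 genes at 0.05, and DESeq2 1.42.0 was an alternative (R 4.3.3, Python 3.11.15). With 2 libraries a side, the smallest two-sided p of an exact permutation test is 0.333. The labels do not say whether libraries came from separate cell isolations, so p-values measure the spread between libraries, which may be technical. Counts were simulated for ischemia eugenol against ischemia DMSO (6582 genes, 200 changed), with normoxia DMSO means as the base of every group. The changed genes were drawn from those of at least 5 RPM, so lower genes such as Alkbh6 are not covered. Of genes changed 1.5, 2 and 4 times, 86.6%, 97% and 100% were recovered, with 13 false calls. Named genes were the members, overlapping genes, the nearest listed genes within 50 kb, models sharing a name, the 3 genes most like and most opposite, and up to 4 of the highest genes of each list, of which a selection is printed.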

Additional observations from a re-analysis of the deposited data

Results flagged for a closer look

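Of the 4 member models with a count in all 8 libraries, 2 had eugenol effects of opposite direction at the oxygen levels in every library. For Alkbh6 the log2 ratio of eugenol over DMSO was 4.39 in normoxia and -2.63 in ischemia, a difference of 7.02. For the shorter Tsen34 model it was 1.85 and -1.95, a difference of 3.81. Neither difference was tested, since both genes were chosen on these values. Groups of 2 libraries are too small to mark a single library as standing apart.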

How the results depend on the processing

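Between the ischemia groups the number of called genes was 1, and 6 with DESeq2's Wald test, and leaving out each library gave 0 to 11 (without ischemia DMSO replicate 2 edgeR called 0, with 232 at an unadjusted p under 0.05, and without ischemia eugenol replicate 1 it called 11). Between the normoxia groups it was 3, and 11 with DESeq2's Wald test, 0 among genes of at least 5 RPM (edgeR, 231 unadjusted), and 1 to 10 leaving out each library. The oxygen comparisons stayed within 1.5 times of 6546 and 6530 calls under every alternative run. With the replicate number as a block the counts of calls were 6544, 6532, 1 and 4 for ischemia DMSO against normoxia DMSO, ischemia eugenol against normoxia eugenol, and the ischemia and normoxia eugenol comparisons. The numbers were not shown to pair libraries, with correlations of same-numbered deviations from -0.23 to 0.12, and a crossed pairing added after seeing the data gave 6550, 6542, 1 and 3. Taking the larger of the 2 models in place of their sum, between the ischemia groups, moved the log2 ratio from 1.02 to 0.20 for Echs1 with Paox and from 0.04 to 0.62 for the Hiat1 models. Leaving out each library gave -3.62 to 0.42 for Pdcd5 with its copy, against -0.49. Pairs of copies were added after seeing the data. For the 19 list genes chosen by level, Paox and Mtg1, in the oxygen comparisons, 580 of 586 values kept direction and call, and 6 lost the call with direction kept, among them Rtcb with eugenol and Clasp1 and Hiatl1 in both comparisons with DESeq2 size factors, and Alkbh2 without ischemia DMSO replicate 2. Counts of a few reads, such as 3 and 4 for Alkbh6, and 2 libraries a group limit every member value.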
